A study of Homo sapiens with 30 samples.

Results

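The 52 genes described here encode nucleolar proteins that make ribosomes. They were taken by name as nucleolar and ribosome assembly factors, with earlier results of these data known, and matched to the rows of the LNCaP count table by gene identifier with the version removed. All 52 were found among 37843 genes, and all 52 were among the 18403 genes with enough counts to be tested. LNCaP is a human prostate cancer cell line, derived from a lymph node metastasis, that depends on androgens, and R1881 (methyltrienolone) is a synthetic androgen. The study asked how a 2-phase response to androgen arises, and this dose series holds 5 groups of 3 libraries each: vehicle and 0.03, 0.06, 0.1 and 10 nM R1881, each for 24 h. What all 5 groups share is that cells were seeded at 130000 per well and kept for 48 h in medium with 8% charcoal-stripped serum, which is poor in steroids, before treatment. The libraries are numbered 2, 3 and 4 in every group, and the labels do not say whether they came from separate cultures, so p-values measure only the spread between these libraries, which may be technical.

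Levels are given in CPM, the usual unit of counts scaled to a common library total, with that total adjusted by the TMM factor, which scales each library by the bulk of its genes. Differences between groups are given as log2 changes with their standard errors, followed by the Benjamini-Hochberg adjusted p of edgeR's quasi-likelihood test over all 18403 genes. A gene is called higher or lower, or said to have risen or fallen, where that adjusted p is under 0.05. Values of the 3 libraries of a group are given in the order of replicates 2, 3 and 4, and means are given ± SD with n = 3. These are bulk samples, so that fewer cells and less RNA per cell cannot be told apart, and all values are relative to the other RNA in the same library.

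Ribosome production starts in the nucleolus, where RNA polymerase I transcribes a long precursor that holds the 18S, 5.8S and 28S rRNAs, while RNA polymerase III makes 5S rRNA outside it. Small nucleolar ribonucleoproteins of the box C/D type methylate the precursor at chosen sugars, and the SSU processome, a large particle of U3 snoRNA and UTP proteins, folds and cleaves it to release the small subunit. Separate sets of factors then build the large subunit and ripen both particles for export. The transcription factor MYC is known to drive many of these genes, and its heterodimer with MAX binds the letters CACGTG, called the canonical E-box. Prostate cancer cells often have large nucleoli, and growing cells spend much of their energy on ribosomes.

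Total counts ran from 30666460 to 61199483 per library, and the mean TMM factor was lowest at 10 nM (0.902 ± 0.0166, n = 3, against 1.003 to 1.043 in the other groups). KLK3, which encodes prostate-specific antigen and is a standard androgen target, was called higher than vehicle at every dose, from log2 2.92 ± 0.090 at 0.03 nM to 5.23 ± 0.099 at 10 nM. Along the third principal component, with 5.86% of the variance, replicate 3 of every group was separated from replicates 2 and 4; mitochondrial transcripts made up between 9.31 and 10.7% of its total, and between 6.14 and 7.69% of theirs. All 8 prostate epithelium markers were detected, with a summed level of 4411 to 4530 CPM in vehicle and 12148.0 to 12420.0 CPM at 10 nM, most of it KLK3 at the higher doses. Leukocyte markers summed to at most 0.237 CPM and basal markers to at most 0.915 CPM. The endothelial list summed to 16.7 to 20.1 CPM in vehicle and 5.16 to 7.81 CPM at 10 nM, nearly all VWF, with PECAM1 and CDH5 at 0 or 1 counts in every library. The fibroblast list went from 26.8 to 37.9 CPM in vehicle to 16.2 to 19.9 CPM at 10 nM, mostly COL1A1, with DCN at no more than 6 counts. The part of VWF and COL1A1 in the results below was not tested.

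R1881 at 0.06 and 0.1 nM raised most of the 52 genes, 0.03 nM raised fewer, and none was called lower at these 3 doses. At 10 nM most were called higher than vehicle with TMM scaling but not with library totals. At 0.03 nM 15 members were higher than vehicle and 0 lower, where 5.47% of all tested genes were higher and 3.16% lower. At 0.06 nM 42 were higher and 0 lower, where 16.9% of all genes were higher and 14.3% lower. At 0.1 nM 43 were higher and 0 lower, against 21.5% and 20.6%. None of the members was lower at any of these 3 doses by DESeq2 either, or at an unadjusted edgeR p under 0.05 (0 in each case). At 10 nM 38 members were higher and 5 lower, against 29.3% and 28.3% of all genes; scaled to library totals, 16 were higher and 12 lower. The members' median log2 change was 0.14, 0.31, 0.35 and 0.26 at the 4 rising doses, where that of all genes was 0.002, -0.014, -0.026 and -0.013. The 4 comparisons share the vehicle libraries. The test of any difference among the 5 groups called 51 of the 52 members, and 60.4% of all genes; the exception was NOP2.

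**Figure D1:**
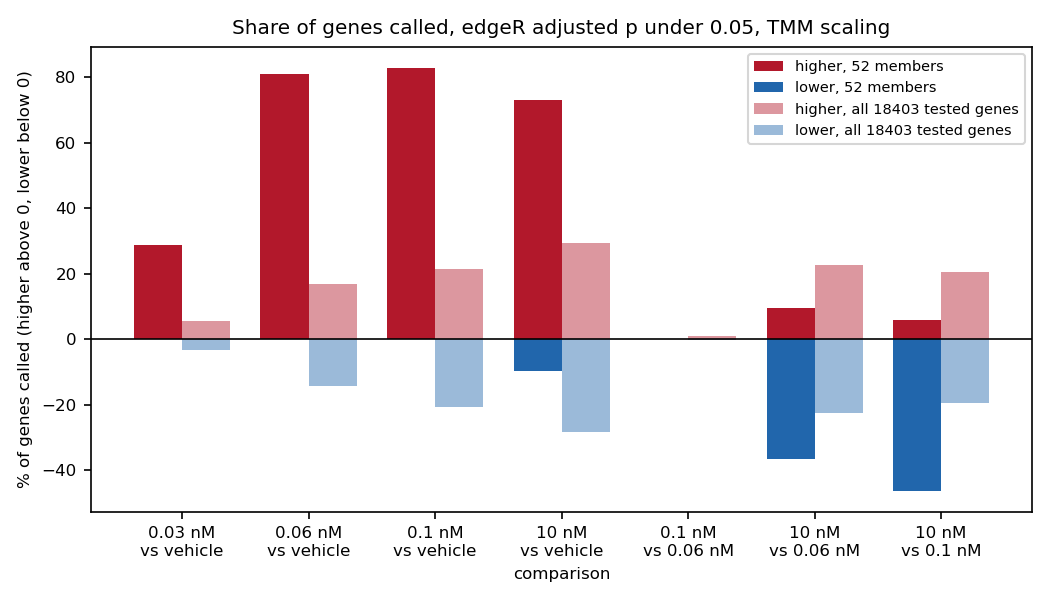
Bars show the percentage of genes called higher (red, above 0) or lower (blue, below 0) in each of 7 comparisons named on the x axis, for the 52 ribosome biogenesis genes (full colour) and for all 18403 tested genes (pale). Members reach 42 and 43 of 52 higher at 0.06 and 0.1 nM with none lower, and 19 and 24 of 52 lower at 10 nM against those doses. Calls use TMM scaling, and scaled to library totals 10 nM against vehicle has 16 members higher and 12 lower, and the last 2 comparisons have 37 lower and none higher.

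The rises were modest in size, and the count at 0.03 nM depended on single libraries. At 0.06 nM the largest rise among called members was that of TCOF1 (1.86-fold) and the largest at 10 nM was that of NOP16 (1.65-fold). At 0.03 nM the count of 15 went to 6 without vehicle replicate 4, 9 without 0.03 nM replicate 2, 7 without 0.03 nM replicate 3 and 6 when only vehicle and 0.03 nM libraries were fitted. With the replicate number as a block, which the check of pairing allows for this comparison, 24 members were higher at 0.03 nM and 0 lower. The libraries of 26 members did not overlap those of vehicle at 0.03 nM, all 26 on the higher side, where 13.1% of all genes did so. Of the 15 called members, 10 lost the call when some single library was left out; those that kept it in every such fit were TCOF1, LYAR, NOP56, GRWD1 and MRTO4.

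Most members peaked at 0.1 nM. The highest group mean was at 0.1 nM for 30 members, at 10 nM for 14 and at 0.06 nM for 8, and it was in vehicle or at 0.03 nM for 0. Over all tested genes, 13.9% peaked at 0.1 nM, 33.9% at 10 nM, 8.69% at 0.06 nM, 30.8% in vehicle and 12.7% at 0.03 nM. The lowest mean was in vehicle for 44 members, at 10 nM for 7 and at 0.03 nM for 1. These are counts of group means with TMM scaling and no test of their order. They were not repeated with library totals, which shifted the median log2 change of all genes at 10 against 0.1 nM by -0.153. The 2 middle doses themselves gave 0 calls among members (1.07% of all genes higher and 0.293% lower at 0.1 against 0.06 nM by edgeR), with 1 member higher and 0 lower at an unadjusted p under 0.05 and 0 calls by DESeq2. The members' log2 changes between these doses had a median of 0.040 and ran from -0.21 (POLR3G) to 0.18 (NOC3L). The standard error of POLR3G was 0.12 and that of NOC3L 0.072. The libraries of the 2 doses did not overlap for either gene, and the edgeR p adjusted over all genes was 0.666 for POLR3G and 0.385 for NOC3L, whose unadjusted p was 0.0256.

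**Figure D2:**
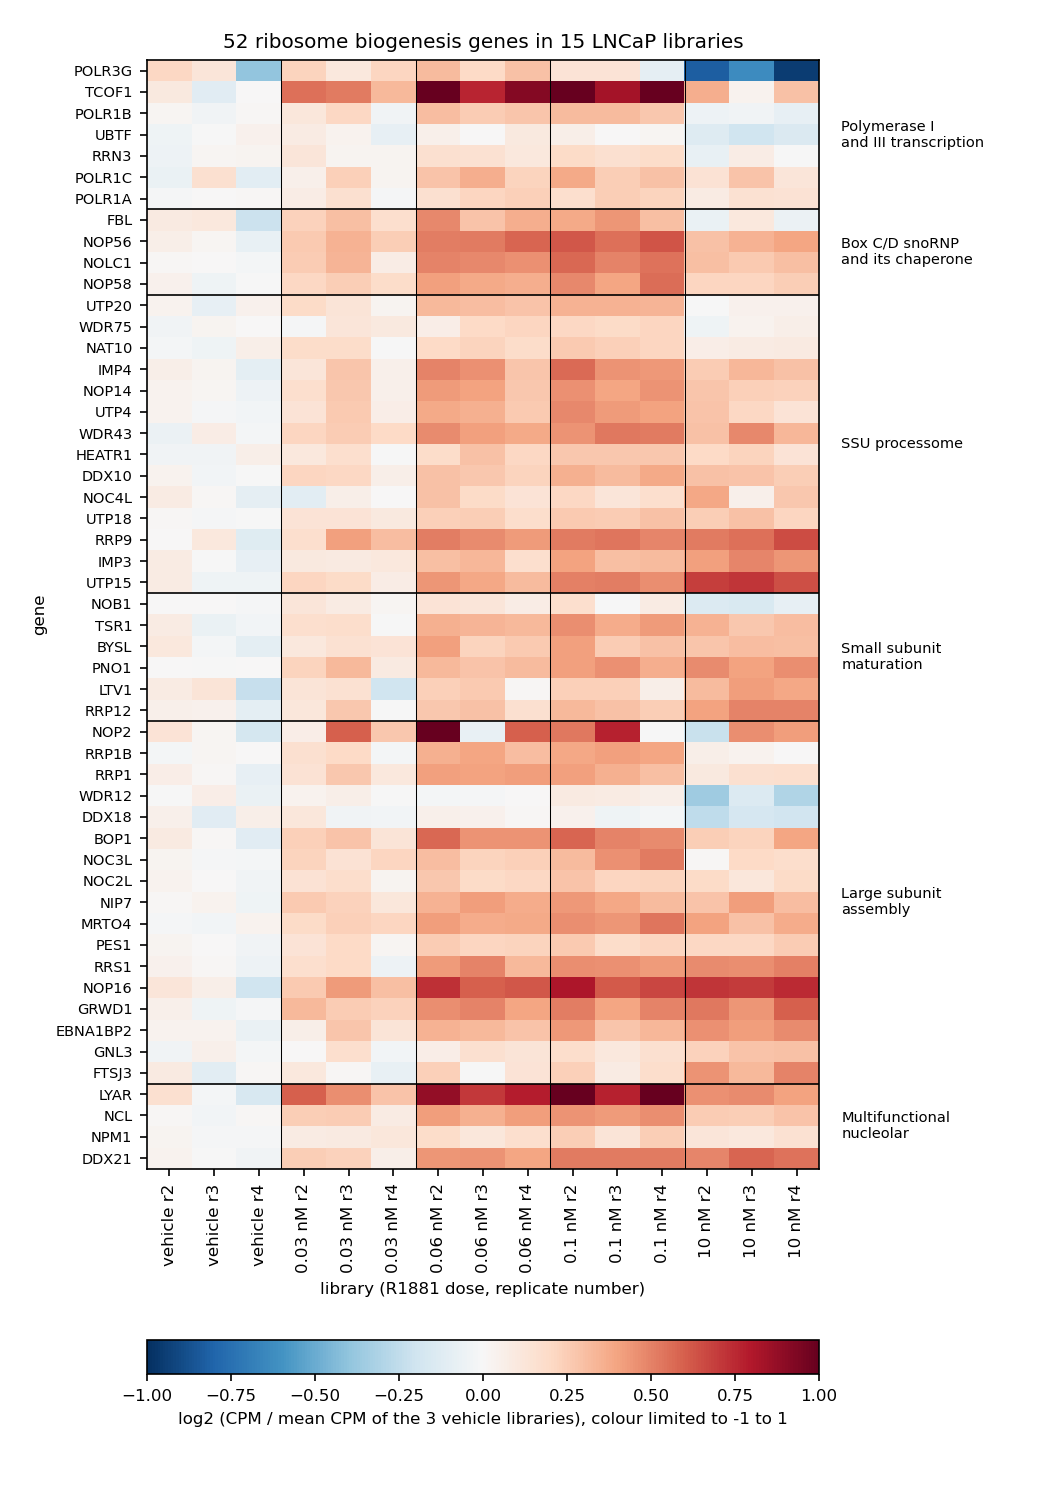
Each row is 1 of the 52 genes, grouped by role, each column 1 of the 15 libraries by R1881 dose and replicate number, and colour gives log2 of the library's CPM over the gene's mean CPM in the 3 vehicle libraries (red higher, blue lower, limited to -1 to 1). Red deepens from 0.03 to 0.1 nM in most rows, and at 10 nM 38 rows are called higher than vehicle and 5 lower with TMM scaling.

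Promoters of members held the canonical E-box more often than promoters at large, and 6 chosen ones are printed here. All 6 genes were called higher at 0.06 nM and their values at 10 nM are among those the results turn on. All but NOP16 were also required to hold CACGTG in the printed stretch, so the 6 do not stand for the members at large. RefSeq promoters (GRCh38.p14, 250 bases before to 50 after each annotated start) were in the table used for 43 of the 52 genes, with 52 starts in all. CACGTG, which reads the same on both strands, was in 21 of these 52 windows (40.4%), and in 2548 of all 35116 windows (7.26%). By gene, 20 of 43 members (46.5%) and 2396 of 27305 genes (8.78%) had it in at least 1 window. Member windows were richer in G and C (median 64.2% against 58.7%), and the part of base composition was not tested. The related CACGCG, searched on both strands, was in 17 member windows (32.7%) and in 11.4% of all. The androgen receptor hexamer AGAACA was in 7 member windows (13.5%) and 14.8% of all, on either strand, and its inverted repeat with 3 bases between was in 0 member windows and 1 of all. A match describes letters, not binding, and its absence from such a short window says nothing of the receptor. The stretches cover the 100 bases before the start, 5′ to 3′ along the gene, with CACGTG in capitals: LYAR at chr4:4290022-4290121 (minus strand), DDX21 at chr10:68956547-68956646 (plus strand), UTP18 at chr17:51260446-51260545 (plus strand), UTP20 at chr12:101280005-101280104 (plus strand), NAT10 at chr11:34105529-34105628 (plus strand) and NOP16 at chr5:176388599-176388698 (minus strand). LYAR and DDX21 each have 2 annotated starts. The start shown was picked because CACGTG lies in the 100 bases before it, and the window of the other start has no CACGTG in either gene.
LYAR: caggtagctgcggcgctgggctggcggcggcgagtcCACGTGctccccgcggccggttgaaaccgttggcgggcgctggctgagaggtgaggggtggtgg
DDX21: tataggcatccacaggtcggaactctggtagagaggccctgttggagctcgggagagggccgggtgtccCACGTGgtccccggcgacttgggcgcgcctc
UTP18: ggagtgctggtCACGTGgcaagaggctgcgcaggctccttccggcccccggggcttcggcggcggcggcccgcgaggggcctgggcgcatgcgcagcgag
UTP20: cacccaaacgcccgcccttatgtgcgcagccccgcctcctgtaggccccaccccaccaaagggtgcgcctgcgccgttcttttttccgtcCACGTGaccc
NAT10: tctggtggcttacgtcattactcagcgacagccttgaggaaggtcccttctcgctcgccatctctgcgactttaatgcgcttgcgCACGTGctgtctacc
NOP16: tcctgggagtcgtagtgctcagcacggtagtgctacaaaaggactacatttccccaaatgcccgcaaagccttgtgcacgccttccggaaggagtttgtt

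In the printed stretches the E-box begins 64 bases before the start of LYAR, 31 before DDX21, 89 before UTP18, 10 before UTP20 and 15 before NAT10, and the printed stretch of NOP16 has none. The window of UTP18 holds a further CACGTG past the printed stretch, which begins at base 5 when the start is counted as base 1. LYAR, DDX21 and NOP16 were called higher than vehicle at 0.06, 0.1 and 10 nM, and so was UTP18, at 10 nM not with library totals (adjusted p = 0.444). UTP20 and NAT10 were called at 0.06 and 0.1 nM and not at 10 nM. NOP16, with no E-box in its stretch, had a log2 change of 0.65 ± 0.076 at 0.06 nM, and UTP20, with one, 0.31 ± 0.050. Among these genes, picked in part for the letters, their presence thus went with both small and large changes, and no test across genes was made.

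Most RNA polymerase I and III factors rose at 0.06 and 0.1 nM. Of 7, 5 were higher at 0.06 nM (16.9% of all genes) and the same number at 0.1 nM (21.5%), and none lower. At 10 nM 3 were higher than vehicle and 2 lower (0 and 4 with library totals), which is 28.6% lower and near the 28.3% of all genes. Against 0.06 nM 5 were lower at 10 nM, where 22.6% of all genes were. The median log2 change was 0.27 at 0.06 nM and 0.001 at 10 nM. TCOF1 (ENSG00000070814.22, chromosome 5, 150357629 to 150400308, plus strand) encodes treacle, a nucleolar protein that recruits the polymerase I machinery to rDNA and is mutated in Treacher Collins syndrome. TCOF1 stood at 61.9, 53.5 and 58.02 CPM in vehicle, 84.7, 82.7 and 72.5 at 0.03 nM, 116, 97.9 and 109 at 0.06 nM, 122, 103 and 122 at 0.1 nM and 74.4, 59.2 and 70.7 at 10 nM. No library at 0.03, 0.06 or 0.1 nM overlapped vehicle, and the 10 nM libraries overlapped it. The change was log2 0.90 ± 0.092, adjusted p = 9.73e-07 at 0.06 nM and log2 1.001 ± 0.092, adjusted p = 1.2e-07 at 0.1 nM, where it was the only member to double. At 10 nM TCOF1 was lower than at 0.06 nM (log2 -0.66 ± 0.092, adjusted p = 1.07e-05). Against vehicle its 10 nM call (log2 0.23 ± 0.092, adjusted p = 0.0372) was lost without single libraries among vehicle replicates 3 and 4 and 10 nM replicates 2 and 4 (adjusted p from 0.0753 to 0.211) and with library totals or a stricter filter (adjusted p from 0.0826 to 0.845).

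POLR1A and POLR1B encode the largest subunits of RNA polymerase I, which together form its active site. POLR1A stood at 136, 137 and 138 CPM in vehicle, 144, 153 and 136 at 0.03 nM, 153, 159 and 162 at 0.06 nM, 154, 162 and 159.5 at 0.1 nM and 145, 152 and 152 at 10 nM. POLR1B stood at 54.4, 52.3 and 53.9 CPM in vehicle, 58.02, 61.8 and 52.3 at 0.03 nM, 66.3, 63.9 and 65.00 at 0.06 nM, 66.7, 66.8 and 64.5 at 0.1 nM and 51.8, 52.3 and 50.5 at 10 nM. Both genes were above vehicle in every library at 0.06 and 0.1 nM, and POLR1B overlapped vehicle again at 10 nM. POLR1B rose at 0.06 nM (log2 0.28 ± 0.054, adjusted p = 0.000664) and was lower at 10 than at 0.06 nM (log2 -0.34 ± 0.054, adjusted p = 5.91e-05), with -0.055 ± 0.054 at 10 nM against vehicle (called lower when scaled to library totals). POLR1A rose by less (log2 0.20 ± 0.049, adjusted p = 0.00376), and its 10 nM change of 0.13 ± 0.049 turned to -0.083 when scaled to library totals. That call was lost without single libraries among vehicle replicates 2, 3 and 4 and 10 nM replicates 3 and 4 (adjusted p from 0.0601 to 0.136) and with library totals, no filter on low counts, a stricter filter, only the libraries compared or the 5 libraries numbered 3 left out (adjusted p from 0.0648 to 0.118).

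RRN3, the initiation factor that makes polymerase I able to start, moved little. RRN3 stood at 72.3, 76.1 and 76.2 CPM in vehicle, 81.3, 76.2 and 76.5 at 0.03 nM, 83.7, 83.1 and 80.6 at 0.06 nM, 85.3, 83.5 and 85.03 at 0.1 nM and 71.1, 78.98 and 74.5 at 10 nM. Its libraries at 0.06 and 0.1 nM lay above all vehicle libraries by a small margin. The call at 0.06 nM (log2 0.14 ± 0.049, adjusted p = 0.036) was lost without single libraries among vehicle replicates 2, 3 and 4, 0.06 nM replicates 2 and 3 and 10 nM replicate 4 (adjusted p from 0.0526 to 0.139) and with library totals, no filter on low counts or only the libraries compared (adjusted p from 0.0513 to 0.198). The fall from 0.06 to 10 nM (log2 -0.14 ± 0.049, adjusted p = 0.0269) was lost without single libraries among 0.06 nM replicates 2 and 3 and 10 nM replicates 2 and 4 (adjusted p from 0.0608 to 0.107) and with DESeq2 or no filter on low counts (adjusted p from 0.0526 to 0.178). POLR1C, a subunit shared by polymerases I and III, was higher at 0.06 nM (0.29 ± 0.077) and at 0.1 nM (0.31 ± 0.076). Its 10 nM change of 0.19 ± 0.076 turned to -0.024 when scaled to library totals. That call was lost without single libraries among vehicle replicates 2 and 4, 0.03 nM replicate 2, 0.06 nM replicates 2 and 4, 0.1 nM replicates 2, 3 and 4 and 10 nM replicates 2, 3 and 4 (adjusted p from 0.0504 to 0.256) and with library totals, a stricter filter or only the libraries compared (adjusted p from 0.104 to 0.782).

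UBTF and POLR3G were the 2 genes of this role that fell below vehicle at 10 nM without a call at lower doses. UBTF encodes UBF, which bends rDNA and keeps it open for polymerase I, and POLR3G (ENSG00000113356.13, chromosome 5, 90471748 to 90514553, plus strand) encodes the polymerase III subunit typical of stem cells and tumours. UBTF stood at 146, 149.9 and 155 CPM in vehicle, 159, 154 and 142 at 0.03 nM, 156, 151 and 160.4 at 0.06 nM, 156, 150.5 and 152 at 0.1 nM and 138, 131 and 135 at 10 nM. POLR3G stood at 10.7, 10.1 and 7.09 CPM in vehicle, 10.9, 10.01 and 10.8 at 0.03 nM, 11.6, 10.7 and 11.4 at 0.06 nM, 10.2, 10.3 and 8.73 at 0.1 nM and 5.25, 6.03 and 4.82 at 10 nM. In both genes every 10 nM library was below every library of vehicle, 0.06 and 0.1 nM. POLR3G had the largest fall of all members, log2 -0.79 ± 0.13, adjusted p = 4.64e-05 against vehicle and log2 -1.06 ± 0.13, adjusted p = 2.57e-06 against 0.06 nM. UBTF fell by a small amount (log2 -0.16 ± 0.049, adjusted p = 0.0111), a call that narrowly missed the threshold with no filter on low counts (adjusted p = 0.052).

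**Figure D3:**
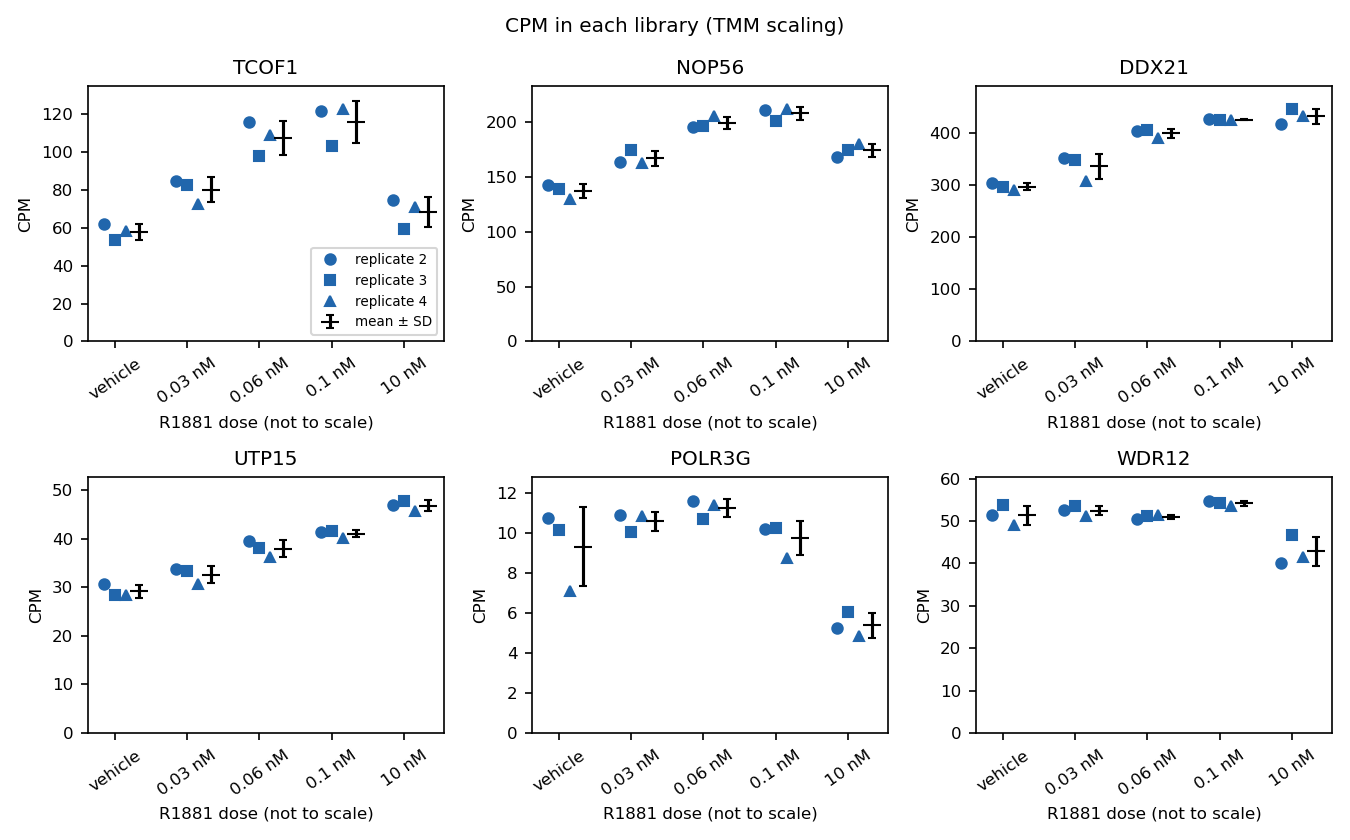
CPM of 6 genes in each of the 15 libraries (circles, squares and triangles for replicates 2, 3 and 4), by R1881 dose on an unscaled axis, with the group mean ± SD (n = 3) in black and the y axis starting at 0. TCOF1 and NOP56 are highest at 0.1 nM and lower at 10 nM, DDX21 and UTP15 are highest at 10 nM, and POLR3G and WDR12 are lowest at 10 nM, with TMM scaling.

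Every gene of the box C/D group rose at 0.06 and 0.1 nM (16.9 and 21.5% of all genes) and was lower at 10 nM than at either dose (22.6 and 19.5%). NOP56 and NOP58 form the scaffold of the particle, FBL (fibrillarin) is its methyltransferase, and NOLC1 (Nopp140) is a chaperone that carries snoRNPs. The median log2 change of the 4 was 0.43 at 0.06 nM, 0.51 at 0.1 nM and 0.26 at 10 nM, and -0.19 between 0.06 and 10 nM. NOP56 stood at 143, 139 and 130.0 CPM in vehicle, 164, 174 and 163 at 0.03 nM, 196, 196 and 206 at 0.06 nM, 211, 201 and 212 at 0.1 nM and 168, 175 and 180.4 at 10 nM. NOLC1 stood at 243, 240.4 and 238 CPM in vehicle, 287, 304 and 254 at 0.03 nM, 339, 334 and 329 at 0.06 nM, 357, 339 and 351 at 0.1 nM and 297, 289 and 297 at 10 nM. In both genes the 3 low doses and 10 nM lay wholly above vehicle, and 10 nM lay below 0.06 and 0.1 nM. NOP56 (ENSG00000101361.17, chromosome 20, 2652145 to 2658393, plus strand) changed by log2 0.54 ± 0.050, adjusted p = 3.09e-07 at 0.06 nM and by log2 -0.19 ± 0.050, adjusted p = 0.00413 between 0.06 and 10 nM. NOLC1 changed by log2 0.48 ± 0.055, adjusted p = 3.83e-06 and by log2 -0.19 ± 0.055, adjusted p = 0.0104 in the same comparisons. At 10 nM against vehicle NOP56 stayed higher (0.35 ± 0.050), and NOLC1 (0.29 ± 0.055) and NOP58 (0.23 ± 0.048) were called higher except when scaled to library totals (adjusted p = 0.187 and 0.797).

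FBL was not called at 10 nM against vehicle. FBL stood at 151, 153 and 123 CPM in vehicle, 166, 175 and 159 at 0.03 nM, 198, 173 and 183 at 0.06 nM, 185, 193 and 175 at 0.1 nM and 136, 153 and 137 at 10 nM. Its 10 nM libraries overlapped those of vehicle and lay below all libraries at 0.06 and 0.1 nM. The change was log2 0.38 ± 0.078, adjusted p = 0.00116 at 0.06 nM, -0.002 ± 0.078 at 10 nM against vehicle (called lower when scaled to library totals), and log2 -0.38 ± 0.078, adjusted p = 0.000603 between 0.06 and 10 nM. At 0.03 nM FBL was at 0.23 ± 0.078 with no overlap with vehicle but no call (adjusted p = 0.0747). NOP58 rose at 0.06 nM (0.39 ± 0.048) and 0.1 nM (0.48 ± 0.048) and was lower at 10 nM than at 0.06 nM (-0.16 ± 0.048), a call lost with no filter on low counts (adjusted p = 0.0977). Calls at 0.03 nM in this group were less firm than those above: NOP58 lost its call without vehicle replicate 3 (adjusted p = 0.0559) and NOLC1 without single libraries among vehicle replicate 4 and 0.03 nM replicates 2 and 3 (adjusted p from 0.0522 to 0.0802) and with only the libraries compared or the 5 libraries numbered 3 left out (adjusted p from 0.0781 to 0.101). NOP56 and NOP58 hold snoRNA genes within their introns, and reads from unspliced RNA of those introns would not be separable here.

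Nearly all SSU processome genes rose at 0.06 and 0.1 nM, and most were above vehicle at 10 nM too. Of 14 genes, 13 were higher at 0.06 nM, 13 at 0.1 nM and 11 at 10 nM (16.9, 21.5 and 29.3% of all genes), and 0 were lower than vehicle. With library totals the 10 nM split was 4 higher and 3 lower. The median log2 change was 0.29, 0.35 and 0.25. UTP15 (ENSG00000164338.10, chromosome 5, 73565443 to 73583377, plus strand), a protein of the first complex to join the precursor, had the smallest p of any difference in this group. UTP15 stood at 30.8, 28.3 and 28.3 CPM in vehicle, 33.8, 33.3 and 30.7 at 0.03 nM, 39.5, 38.1 and 36.2 at 0.06 nM, 41.3, 41.5 and 40.2 at 0.1 nM and 46.99, 47.8 and 45.6 at 10 nM. Its libraries did not overlap between any pair of the groups vehicle, 0.06, 0.1 and 10 nM, which stood in that order. UTP15 changed by log2 0.38 ± 0.055, adjusted p = 4.07e-05 at 0.06 nM, by log2 0.68 ± 0.055, adjusted p = 6.06e-09 at 10 nM and by log2 0.30 ± 0.054, adjusted p = 0.000179 from 0.06 to 10 nM; scaled to library totals the last was not called (adjusted p = 0.0786). From 0.1 to 10 nM its change (0.19 ± 0.054) lost its call without 10 nM replicate 3 (adjusted p = 0.0609) and with library totals or the 5 libraries numbered 3 left out (adjusted p from 0.0743 to 0.622).

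RRP9, a U3 snoRNP protein, and IMP3, which guides U3 pairing with the precursor, were also highest at 10 nM with TMM scaling. RRP9 stood at 35.02, 37.6 and 32.1 CPM in vehicle, 39.1, 46.3 and 43.3 at 0.03 nM, 49.7, 48.4 and 46.9 at 0.06 nM, 50.1, 50.6 and 49.05 at 0.1 nM and 50.1, 51.2 and 54.8 at 10 nM. IMP3 stood at 68.00, 64.2 and 60.9 CPM in vehicle, 68.8, 68.5 and 69.4 at 0.03 nM, 79.1, 81.1 and 72.3 at 0.06 nM, 85.3, 79.2 and 80.3 at 0.1 nM and 85.7, 90.3 and 87.6 at 10 nM. RRP9 lay above vehicle at every dose, and IMP3 at 10 nM lay above all libraries at 0.06 nM. RRP9 rose by log2 0.47 ± 0.066, adjusted p = 3.07e-05 at 0.06 nM and log2 0.58 ± 0.066, adjusted p = 6.4e-07 at 10 nM, and the difference between those doses, 0.11 ± 0.065, was not called. IMP3 rose by log2 0.45 ± 0.054, adjusted p = 1.2e-06 at 10 nM. Its change from 0.06 to 10 nM (log2 0.18 ± 0.054, adjusted p = 0.0103) was lost without single libraries among 0.06 nM replicate 4 and 10 nM replicate 3 (adjusted p from 0.0671 to 0.0827) and with library totals (adjusted p = 0.963).

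Other processome genes peaked at the low doses. NOP14, an assembly factor of the particle, had the highest CPM of the group. NOP14 stood at 98.7, 97.3 and 92.9 CPM in vehicle, 108, 116 and 99.8 at 0.03 nM, 129, 127 and 116 at 0.06 nM, 132, 126 and 132 at 0.1 nM and 116, 113 and 113 at 10 nM. All its treated libraries lay above vehicle, and those at 10 nM lay below those at 0.1 nM. NOP14 rose at 0.06 nM (log2 0.37 ± 0.056, adjusted p = 6.82e-05) and was lower at 10 than at 0.1 nM (log2 -0.19 ± 0.056, adjusted p = 0.0121); its 10 nM call against vehicle (0.25 ± 0.056) was not made when scaled to library totals (adjusted p = 0.565). UTP20, a very large scaffold protein, rose at 0.06 nM (0.31 ± 0.050), stood at 0.025 ± 0.050 at 10 nM against vehicle (-0.185 and called lower when scaled to library totals) and fell between 0.06 and 10 nM (-0.28 ± 0.050). NAT10, the rRNA acetyltransferase, rose by 0.20 ± 0.052 at 0.06 nM and was not called at 10 nM (0.081 ± 0.052, and -0.129 and called lower when scaled to library totals).

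WDR75, of the same early complex as UTP15, had the smallest rise of the group that was called at 0.06 nM (log2 0.16 ± 0.053, adjusted p = 0.0269), and it was lost without single libraries among vehicle replicates 2 and 4 and 0.06 nM replicates 3 and 4 (adjusted p from 0.0631 to 0.115) and with library totals, no filter on low counts or the 5 libraries numbered 3 left out (adjusted p from 0.0583 to 0.131). NOC4L, which partners NOP14, was the gene of this group not called at 0.06 or 0.1 nM (0.21 ± 0.081 and 0.17 ± 0.080). Its 10 nM call (log2 0.24 ± 0.080, adjusted p = 0.0156) was lost without single libraries among vehicle replicate 4 and 10 nM replicates 2 and 4 (adjusted p from 0.064 to 0.142) and with library totals or only the libraries compared (adjusted p from 0.0553 to 0.769). WDR43 and IMP4 had rises at 0.06 nM of 0.42 ± 0.055 and 0.41 ± 0.068, close to that of UTP15. UTP4, UTP18, HEATR1 and DDX10 rose by 0.33 ± 0.057, 0.22 ± 0.043, 0.23 ± 0.052 and 0.26 ± 0.052. At 10 nM these 4 were called higher than vehicle with TMM scaling, but not when scaled to library totals (adjusted p from 0.307 to 0.96), where HEATR1 went from 0.18 to -0.025.

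Most factors that ripen the small subunit after the processome rose, while NOB1 rose at no dose and LTV1 only at 10 nM. Of 6, 4 were higher at 0.06 nM and at 0.1 nM (16.9 and 21.5% of all genes), and at 10 nM, where 29.3% of all genes were higher and 28.3% lower, 5 were higher than vehicle and 1 lower (2 and 1 with library totals). TSR1, a GTPase-like protein that blocks early joining of the subunits, had the highest CPM and the smallest p of any difference. TSR1 stood at 112, 101 and 104 CPM in vehicle, 119, 119 and 105 at 0.03 nM, 135, 134 and 132 at 0.06 nM, 145, 136 and 142 at 0.1 nM and 134, 127 and 131 at 10 nM. No library at 0.06, 0.1 or 10 nM overlapped vehicle. TSR1 rose by log2 0.34 ± 0.055, adjusted p = 0.000125 at 0.06 nM and log2 0.31 ± 0.055, adjusted p = 0.000111 at 10 nM, the latter not called when scaled to library totals (adjusted p = 0.155). RRP12, a repeat protein of the exported pre-40S particle, was highest at 10 nM with TMM scaling. RRP12 stood at 67.02, 66.4 and 60.3 CPM in vehicle, 70.00, 77.6 and 64.4 at 0.03 nM, 77.6, 79.3 and 72.03 at 0.06 nM, 81.04, 79.3 and 76.6 at 0.1 nM and 85.2, 91.2 and 90.8 at 10 nM. Its 10 nM libraries lay above those of every other group. RRP12 rose by log2 0.46 ± 0.065, adjusted p = 7.22e-06 at 10 nM against vehicle. Against 0.06 nM it rose by log2 0.22 ± 0.065, adjusted p = 0.00887, which was lost without 0.06 nM replicate 4 (adjusted p = 0.0614) and with library totals (adjusted p = 0.528); at 0.06 nM against vehicle its call (0.24 ± 0.065) was lost without vehicle replicate 4 (adjusted p = 0.0537).

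NOB1, the endonuclease that makes the final cut of 18S rRNA, ended below vehicle. NOB1 stood at 68.2, 68.03 and 67.4 CPM in vehicle, 73.8, 71.7 and 68.97 at 0.03 nM, 74.7, 73.7 and 71.4 at 0.06 nM, 76.3, 67.8 and 71.97 at 0.1 nM and 61.9, 60.95 and 64.1 at 10 nM. Its 10 nM libraries were the lowest 3 of the 15. The call against vehicle (log2 -0.12 ± 0.049, adjusted p = 0.0408) was lost without single libraries among vehicle replicates 2, 3 and 4 and 10 nM replicates 2 and 3 (adjusted p from 0.0629 to 0.0985) and with RLE size factors, DESeq2, no filter on low counts or the 5 libraries numbered 3 left out (adjusted p from 0.0812 to 0.198). Between 0.06 and 10 nM NOB1 fell, with log2 -0.23 ± 0.050, adjusted p = 0.00082. PNO1, which works beside NOB1, rose at 0.06 nM (0.31 ± 0.061) and at 10 nM (0.45 ± 0.060). LTV1, an export factor, was called only at 10 nM (log2 0.37 ± 0.10, adjusted p = 0.00546), and not when scaled to library totals (adjusted p = 0.157). BYSL (bystin) rose by 0.30 ± 0.063 at 0.06 nM and 0.29 ± 0.062 at 10 nM, the latter again not called with library totals (adjusted p = 0.331).

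**Figure D4:**
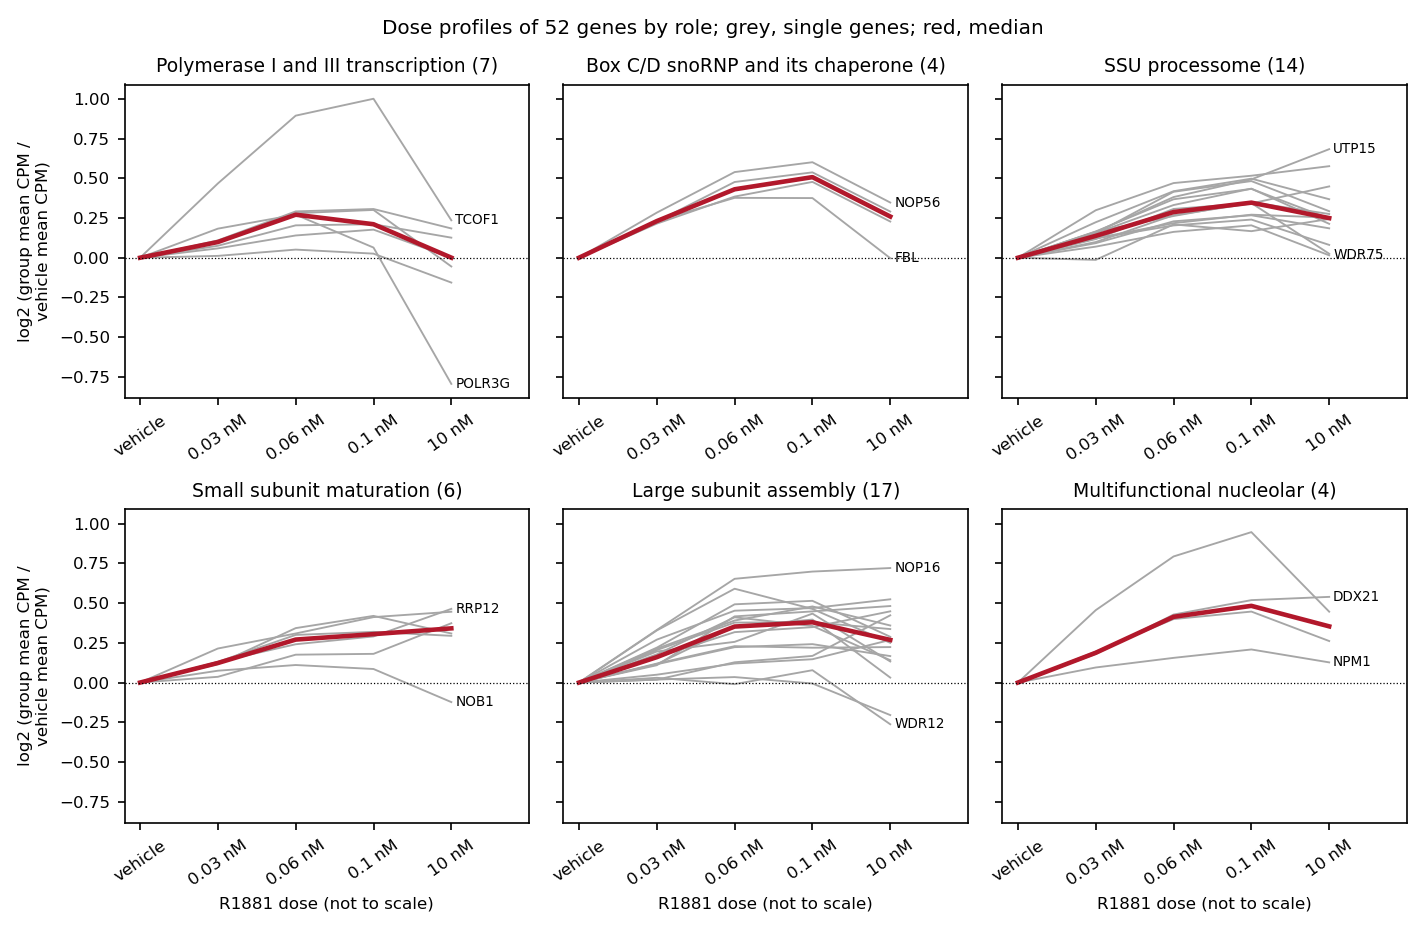
Each panel is 1 role with its number of genes; the x axis gives the R1881 dose on an unscaled axis, the y axis log2 of the group mean CPM (n = 3) over the vehicle mean, grey lines are single genes and the red line their median. The genes with the highest and lowest value at 10 nM are named, and the median of the polymerase panel is back near 0 at 10 nM, with TMM scaling.

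Most large subunit assembly genes rose, and their changes ranged widely. Of 17, 12 were higher at 0.06 nM and 13 at 0.1 nM (16.9 and 21.5% of all genes), and at 10 nM, where 29.3% of all genes were higher and 28.3% lower, 12 were higher than vehicle and 2 lower (7 and 3 with library totals). NOP16, a component of early 60S particles, had the smallest p of any difference in this group. NOP16 stood at 35.4, 33.8 and 28.2 CPM in vehicle, 38.95, 43.5 and 39.9 at 0.03 nM, 53.9, 49.2 and 50.03 at 0.06 nM, 56.9, 49.6 and 51.5 at 0.1 nM and 53.3, 52.7 and 54.4 at 10 nM. All 12 treated libraries lay above vehicle, and the groups at 0.06, 0.1 and 10 nM overlapped. NOP16 rose by log2 0.65 ± 0.076, adjusted p = 3.56e-06 at 0.06 nM and log2 0.72 ± 0.075, adjusted p = 2.02e-07 at 10 nM. GRWD1 and RRS1 kept their rise too. GRWD1 stood at 38.3, 35.9 and 36.6 CPM in vehicle, 46.3, 44.1 and 43.2 at 0.03 nM, 51.1, 51.98 and 48.6 at 0.06 nM, 52.6, 48.6 and 52.2 at 0.1 nM and 53.2, 50.2 and 56.00 at 10 nM. RRS1 stood at 42.4, 41.5 and 39.9 CPM in vehicle, 46.3, 47.4 and 39.8 at 0.03 nM, 55.4, 58.2 and 51.7 at 0.06 nM, 56.9, 56.5 and 55.5 at 0.1 nM and 57.4, 57.05 and 58.5 at 10 nM. GRWD1, a histone-binding protein of pre-60S particles, lay above vehicle at every dose, and RRS1, which brings the 5S particle into the large subunit, at the 3 doses from 0.06 nM up. The log2 changes at 0.06 and 10 nM were 0.45 ± 0.055 and 0.52 ± 0.055 for GRWD1, and 0.42 ± 0.062 and 0.48 ± 0.061 for RRS1, and all 4 were called, also when scaled to library totals.

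PES1, BOP1 and WDR12 encode the 3 subunits of the PeBoW complex, which is needed for processing of the large subunit rRNAs, and their values took 3 different courses. BOP1 stood at 71.01, 67.2 and 61.7 CPM in vehicle, 78.5, 81.4 and 72.9 at 0.03 nM, 99.4, 90.8 and 91.03 at 0.06 nM, 99.5, 93.7 and 92.3 at 0.1 nM and 79.1, 77.5 and 87.4 at 10 nM. PES1 stood at 93.4, 91.7 and 89.3 CPM in vehicle, 101, 105 and 92.5 at 0.03 nM, 109, 106 and 107 at 0.06 nM, 109, 104 and 106 at 0.1 nM and 106, 105 and 109 at 10 nM. WDR12 stood at 51.4, 53.7 and 49.1 CPM in vehicle, 52.5, 53.6 and 51.3 at 0.03 nM, 50.6, 51.1 and 51.4 at 0.06 nM, 54.8, 54.3 and 53.6 at 0.1 nM and 40.1, 46.8 and 41.6 at 10 nM. BOP1 and PES1 lay above vehicle in every library from 0.06 nM up, and WDR12 (ENSG00000138442.10, chromosome 2, 202874782 to 203014798, minus strand) overlapped it at the low doses and lay wholly below it at 10 nM. BOP1 rose at 0.06 nM (log2 0.49 ± 0.064, adjusted p = 1.4e-05), PES1 rose by less (log2 0.23 ± 0.049, adjusted p = 0.00149), and WDR12 was at -0.010 ± 0.055 with no call. At 10 nM against vehicle WDR12 fell (log2 -0.26 ± 0.055, adjusted p = 0.000558), while BOP1 (0.29 ± 0.064) and PES1 (0.22 ± 0.049) were called higher except with library totals (adjusted p = 0.337 and 0.828). The fall of BOP1 from 0.06 to 10 nM (log2 -0.20 ± 0.064, adjusted p = 0.0142) was lost without single libraries among 0.06 nM replicate 2 and 10 nM replicate 3 (adjusted p from 0.0559 to 0.0764). The differences between the 3 genes' changes were not tested.

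FTSJ3 and GNL3 were highest at 10 nM with TMM scaling. FTSJ3 is an rRNA methyltransferase of the pre-60S particle, and GNL3 encodes nucleostemin, a nucleolar GTPase abundant in stem cells. FTSJ3 stood at 91.7, 80.2 and 86.9 CPM in vehicle, 93.01, 87.1 and 82.01 at 0.03 nM, 102, 86.00 and 95.1 at 0.06 nM, 102, 91.5 and 97.5 at 0.1 nM and 118, 108 and 121 at 10 nM. GNL3 stood at 192, 204 and 194 CPM in vehicle, 197, 220.5 and 193 at 0.03 nM, 206, 219.6 and 215 at 0.06 nM, 222, 211 and 219 at 0.1 nM and 230.2, 239 and 241 at 10 nM. In both genes the 10 nM libraries lay above all libraries of every other group. FTSJ3 rose by log2 0.42 ± 0.071, adjusted p = 5.47e-05 against vehicle and log2 0.29 ± 0.071, adjusted p = 0.00235 against 0.06 nM, the latter not called when scaled to library totals (adjusted p = 0.259). GNL3 rose by log2 0.27 ± 0.053, adjusted p = 0.000295 against vehicle, not called with library totals (adjusted p = 0.292). Its change against 0.06 nM, 0.15 ± 0.053, was lost without single libraries among 0.06 nM replicates 2 and 4 and 10 nM replicates 2, 3 and 4 (adjusted p from 0.0528 to 0.137) and with library totals or a stricter filter (adjusted p from 0.0596 to 0.637), and with library totals it turned to -0.029.

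RRP1B and RRP1, related nucleolar proteins, rose at 0.06 and 0.1 nM and were lower at 10 nM than at 0.06 nM. RRP1B stood at 70.3, 72.1 and 71.5 CPM in vehicle, 79.6, 81.9 and 70.3 at 0.03 nM, 91.3, 93.8 and 88.2 at 0.06 nM, 93.1, 94.96 and 93.7 at 0.1 nM and 74.3, 73.02 and 71.3 at 10 nM. At 10 nM its libraries overlapped vehicle and lay below those at 0.06 and 0.1 nM. RRP1B rose by log2 0.35 ± 0.053, adjusted p = 5.81e-05 at 0.06 nM and fell from 0.06 to 10 nM (log2 -0.32 ± 0.053, adjusted p = 7.07e-05), and its 10 nM value against vehicle, 0.031 ± 0.053, turned to -0.178 with library totals and was then called lower. RRP1 rose by 0.41 ± 0.055 at 0.06 nM and fell between 0.06 and 10 nM (-0.27 ± 0.055). At 10 nM RRP1 was still called higher than vehicle (log2 0.14 ± 0.055, adjusted p = 0.0359). Leaving out vehicle replicate 3 or 4, 0.06 nM replicate 2 or any 10 nM replicate lost that call (adjusted p from 0.0507 to 0.164). So did no or a stricter filter, only the libraries compared or the 5 libraries numbered 3 left out (adjusted p from 0.0932 to 0.125). With library totals the change turned to -0.069 (adjusted p = 0.301). NOC3L, which helps export the pre-60S particle, rose by 0.43 ± 0.072 at 0.1 nM and fell between 0.1 and 10 nM (-0.30 ± 0.072). Its call at 0.06 nM (0.26 ± 0.073) was lost without 0.06 nM replicate 2 (adjusted p = 0.0531) and with no filter on low counts (adjusted p = 0.0531).

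DDX18, an RNA helicase, was not called at the low doses and fell at 10 nM. DDX18 stood at 84.5, 75.8 and 84.97 CPM in vehicle, 88.6, 79.6 and 80.2 at 0.03 nM, 84.6, 84.1 and 82.5 at 0.06 nM, 84.2, 79.4 and 80.7 at 0.1 nM and 68.4, 72.9 and 71.5 at 10 nM. The 10 nM libraries lay below all others. DDX18 changed by 0.035 ± 0.055 at 0.06 nM and by log2 -0.20 ± 0.055, adjusted p = 0.00423 at 10 nM against vehicle. NOC2L, a partner of NOC3L that also binds histones, had the highest CPM of the group. NOC2L stood at 212, 208 and 202 CPM in vehicle, 229, 233 and 211 at 0.03 nM, 250.3, 236 and 239 at 0.06 nM, 253, 241 and 242 at 0.1 nM and 236, 224 and 237 at 10 nM. Its libraries at 0.06, 0.1 and 10 nM lay above vehicle. NOC2L rose by log2 0.22 ± 0.049, adjusted p = 0.00195 at 0.06 nM, and its 10 nM call (0.17 ± 0.049) was lost without 10 nM replicate 4 (adjusted p = 0.0511) and with library totals (adjusted p = 0.509), and with library totals it turned to -0.042. MRTO4, NIP7 and EBNA1BP2, all pre-60S factors, rose by 0.39 ± 0.048, 0.38 ± 0.054 and 0.32 ± 0.059 at 0.06 nM, and by 0.36 ± 0.048, 0.34 ± 0.054 and 0.45 ± 0.059 at 10 nM.

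NOP2, an rRNA methyltransferase of the large subunit, was called in no comparison, and had fewer counts than any other member. It had 24 to 70 counts per library and 656 in all, against a total of 28330 for NOP16. NOP2 stood at 0.915, 0.844 and 0.739 CPM in vehicle, 0.873, 1.26 and 1.004 at 0.03 nM, 1.71, 0.79 and 1.26 at 0.06 nM, 1.20, 1.42 and 0.831 at 0.1 nM and 0.712, 1.15 and 1.11 at 10 nM. The groups overlapped in every comparison. The change at 0.06 nM was 0.61 ± 0.27, larger in size than that of most called members, with an adjusted p of 0.0996. In the annotation used here (GENCODE 29) NOP2 is overlapped on the same strand by AC006064.6, and how the authors' counting treated reads shared by overlapping genes is not given in the sources used here.

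The genes of 4 multifunctional nucleolar proteins all rose at 0.06, 0.1 and 10 nM (16.9, 21.5 and 29.3% of all genes), with 2 of them called at 10 nM when scaled to library totals. Of these, NCL (nucleolin) and NPM1 (nucleophosmin) are among the most plentiful proteins of the nucleolus, DDX21 is a helicase that acts in both rRNA transcription and processing, and LYAR is a zinc finger protein that keeps pre-rRNA processing going. DDX21 stood at 304, 296 and 289.9 CPM in vehicle, 352, 349 and 308 at 0.03 nM, 403, 405 and 389.8 at 0.06 nM, 427, 425 and 424 at 0.1 nM and 417, 445 and 432 at 10 nM. LYAR stood at 17.6, 15.6 and 14.1 CPM in vehicle, 23.9, 21.8 and 19.2 at 0.03 nM, 29.04, 25.8 and 27.2 at 0.06 nM, 32.3, 26.9 and 32.1 at 0.1 nM and 21.7, 21.9 and 20.9 at 10 nM. In both genes every treated library lay above vehicle. DDX21 (ENSG00000165732.13, chromosome 10, 68956128 to 68985073, plus strand) rose by log2 0.43 ± 0.052, adjusted p = 6.46e-06 at 0.06 nM and log2 0.54 ± 0.052, adjusted p = 7.57e-08 at 10 nM, with 0.11 ± 0.052 between those doses and no call. LYAR rose by log2 0.80 ± 0.093, adjusted p = 4.29e-06 at 0.06 nM, the largest change among members after TCOF1, and was lower at 10 than at 0.06 nM (log2 -0.35 ± 0.092, adjusted p = 0.00461).

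NCL and NPM1 moved by smaller amounts. NCL stood at 848, 823 and 848 CPM in vehicle, 996, 1002 and 887 at 0.03 nM, 1124, 1075 and 1124 at 0.06 nM, 1147, 1126 and 1160.1 at 0.1 nM and 1002, 994 and 1024 at 10 nM. NPM1 stood at 781, 762 and 759.8 CPM in vehicle, 814, 816 and 830.0 at 0.03 nM, 871, 830.3 and 864 at 0.06 nM, 911, 841 and 910.3 at 0.1 nM and 836, 825 and 854 at 10 nM. All treated libraries of both genes lay above those of vehicle, by a narrow margin for NPM1. NCL rose by log2 0.40 ± 0.053, adjusted p = 1.6e-05 at 0.06 nM, and at 10 nM its change of 0.26 ± 0.053 was called except with library totals (adjusted p = 0.415). The fall of NCL from 0.06 to 10 nM (log2 -0.14 ± 0.053, adjusted p = 0.0409) was lost without single libraries among 0.06 nM replicates 2 and 4 and 10 nM replicates 2, 3 and 4 (adjusted p from 0.0559 to 0.104) and with RLE size factors or no filter on low counts (adjusted p from 0.0708 to 0.13). NPM1 rose by log2 0.16 ± 0.048, adjusted p = 0.0192 at 0.06 nM, a call lost without single libraries among vehicle replicates 3 and 4 and 0.06 nM replicates 2 and 4 (adjusted p from 0.0583 to 0.0713) and with library totals or no filter on low counts (adjusted p from 0.0837 to 0.12). Its 10 nM change of 0.13 ± 0.048 was lost without single libraries among vehicle replicates 3 and 4 and 10 nM replicates 2, 3 and 4 (adjusted p from 0.0703 to 0.148) and with library totals, no filter on low counts, a stricter filter or only the libraries compared (adjusted p from 0.0869 to 0.234), and with library totals it turned to -0.082. At 0.03 nM the calls of NCL and DDX21 were each lost when single libraries were left out, NCL without single libraries among vehicle replicates 2, 3 and 4, 0.03 nM replicates 2 and 3 and 10 nM replicate 4 (adjusted p from 0.0511 to 0.104) and with only the libraries compared or the 5 libraries numbered 3 left out (adjusted p from 0.115 to 0.166) and DDX21 without single libraries among vehicle replicates 2, 3 and 4, 0.03 nM replicates 2 and 3 and 10 nM replicates 2, 3 and 4 (adjusted p from 0.053 to 0.148) and with no filter on low counts, only the libraries compared or the 5 libraries numbered 3 left out (adjusted p from 0.0679 to 0.177).

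Set directly against the low doses, 10 nM held more falls than rises among members. Against 0.06 nM 5 members were higher and 19 lower, where 22.7% of all genes were higher and 22.6% lower. Against 0.1 nM 3 were higher and 24 lower, against 20.6% and 19.5%. The members' median log2 change was -0.091 against 0.06 nM and -0.12 against 0.1 nM, where that of all genes was -0.027 and -0.013. The 5 higher than at 0.06 nM were UTP15, FTSJ3, RRP12, IMP3 and GNL3. The 19 lower included all 4 box C/D genes and 5 of the 7 polymerase genes, but 2 of the 14 processome genes. The counts of higher genes went to 2 without 0.06 nM replicate 4 and 3 without 10 nM replicate 3 (against 0.06 nM), and to 1 without 10 nM replicate 3 or 10 nM replicate 4 (against 0.1 nM).

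Scaling bears on every comparison with 10 nM. Scaling to library totals instead of TMM shifted the median log2 change of all genes by -0.21 for 10 nM against vehicle, -0.179 against 0.06 nM and -0.153 against 0.1 nM. The members then split into 16 higher and 12 lower than vehicle, 0 higher and 37 lower than 0.06 nM, and 0 higher and 37 lower than 0.1 nM, while all genes split into 3069 and 7987, 2333 and 7043, and 2164 and 5994. Relative to the median of all genes, the members' median stood at 0.27 above it for 10 nM against vehicle under both scalings, and at -0.064 from it against 0.06 nM under both. This sameness was fixed in advance, because a change of scaling shifts the log2 changes of all genes in a comparison by nearly the same amount. It therefore does not tell which scaling is right. The vehicle libraries gave between 0.536 and 0.564% of their counts to members. This share was between 0.595 and 0.614% with 0.03 nM, between 0.638 and 0.684% with 0.06 nM, between 0.647 and 0.694% with 0.1 nM, and between 0.542 and 0.567% with 10 nM. As a share of the library, then, the 10 nM libraries overlapped vehicle. With TMM scaling their summed level was 5251 ± 85.7 CPM in vehicle, 5819 ± 264 at 0.03 nM, 6508 ± 93.1 at 0.06 nM, 6717 ± 131 at 0.1 nM and 6157 ± 56.6 at 10 nM. At the 3 low doses the split changed little with library totals (14, 39 and 41 higher, 0 lower).

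**Figure D5:**
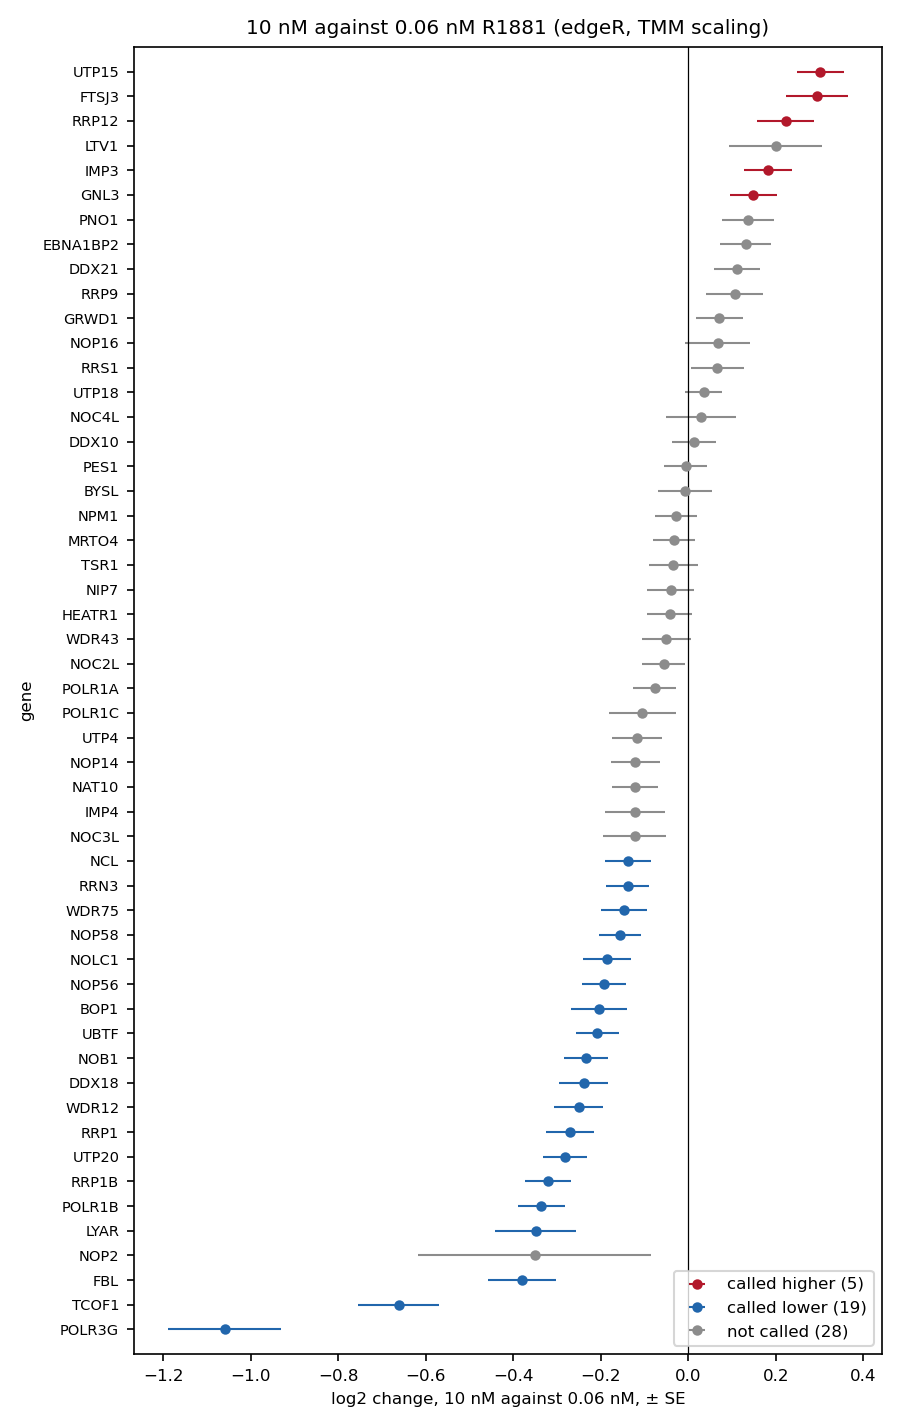
Points give the log2 change of each of the 52 genes at 10 nM against 0.06 nM R1881 and bars its standard error (edgeR, TMM scaling), sorted by change and coloured by call (5 higher in red, 19 lower in blue, 28 not called in grey). POLR3G and TCOF1 have the largest falls and UTP15 and FTSJ3 the largest rises; with library totals 37 genes are lower and none higher.

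Levels per length differed widely among members. Over all 15 libraries, and with exon lengths of GENCODE 29, NPM1 stood highest at 218 RPKM (CPM per kilobase of exon), followed by NCL at 146 RPKM. FBL, NOLC1 and DDX21 were close together at 75.5, 75.5 and 75.3 RPKM. NOP2 was lowest at 0.225 RPKM, and the next lowest was POLR3G at 2.30 RPKM. The exon length comes from another annotation release than the authors' counts may use, so these levels are approximate.

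A wider list of ribosome biogenesis genes also rose at 0.06 and 0.1 nM, and between 0.06 and 10 nM its split was near that of all genes. Of 141 further genes listed, 139 were matched and all of these were tested. At 0.03 nM 21 of the 139 were higher than vehicle and 0 lower; at 0.06 nM 84 were higher and 4 lower; at 0.1 nM 96 were higher and 5 lower; at 10 nM 86 were higher and 10 lower. These are 15.1, 60.4, 69.1 and 61.9% higher, where all genes stood at 5.47, 16.9, 21.5 and 29.3%. Between 0.06 and 10 nM 34 rose (24.5%, against 22.7% of all genes) and 30 fell (21.6%, against 22.6%). Between 0.1 and 10 nM 19 rose (13.7%, against 20.6%) and 31 fell (22.3%, against 19.5%). With library totals the split was 40 higher and 32 lower at 10 nM against vehicle, 6 and 73 against 0.06 nM, and 7 and 75 against 0.1 nM. The median log2 change was 0.22 at 0.06 nM and 0.006 from 0.06 to 10 nM, with the members at 0.31 and -0.091; the difference between the lists was not tested.

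The largest rises of the wider list at 0.06 nM were POLR1G (0.86 ± 0.069) and POLR1F (0.59 ± 0.057), both subunits of polymerase I, and PAK1IP1 (0.76 ± 0.070), a large subunit factor. The largest falls were POLR1D (-0.26 ± 0.047), a subunit shared by polymerases I and III, RIOK3 (-0.23 ± 0.068), a kinase of the pre-40S particle whose call was lost without single libraries among vehicle replicates 3 and 4 and 0.06 nM replicate 2 (adjusted p from 0.0544 to 0.0835) and without the 5 libraries numbered 3 (adjusted p = 0.0632), and DCAF13 (-0.19 ± 0.049), a processome protein. Between 0.06 and 10 nM PAK1IP1 had by far the largest change. PAK1IP1 stood at 20.4, 22.8 and 18.3 CPM in vehicle, 25.6, 29.2 and 26.6 at 0.03 nM, 35.8, 34.4 and 34.03 at 0.06 nM, 49.1, 46.1 and 45.5 at 0.1 nM and 183, 175 and 186 at 10 nM. Each dose lay wholly above the one before it. PAK1IP1 rose by log2 2.38 ± 0.069, adjusted p = 2.33e-14 between 0.06 and 10 nM, and POLR3E and NMD3 by 0.81 ± 0.046 and 0.60 ± 0.091. POLR1E (-0.53 ± 0.060), EXOSC2 (-0.46 ± 0.049) and NOL12 (-0.42 ± 0.15) fell most. POLR1E is a polymerase I subunit, EXOSC2 part of the RNA exosome and NMD3 the export adaptor of the large subunit. The call of NOL12 was lost by DESeq2 (adjusted p = 0.0747), with no filter on low counts (adjusted p = 0.0919) and without single libraries among 0.06 nM replicate 2 and the 10 nM replicates (adjusted p from 0.0526 to 0.106).

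MYC itself was measured in the same libraries. MYC stood at 153, 152 and 151 CPM in vehicle, 186, 188 and 165 at 0.03 nM, 214, 207 and 198 at 0.06 nM, 209, 183 and 201 at 0.1 nM and 112, 107 and 110.3 at 10 nM. Its libraries at the 3 low doses lay above vehicle and those at 10 nM below it. MYC changed by log2 0.44 ± 0.058, adjusted p = 1.4e-05 at 0.06 nM, 0.38 ± 0.058 at 0.1 nM, log2 -0.47 ± 0.058, adjusted p = 1.77e-06 at 10 nM against vehicle and log2 -0.91 ± 0.058, adjusted p = 6.47e-10 between 0.06 and 10 nM. In these same comparisons the members counted 42, 43, 38 and 5 higher and 0, 0, 5 and 19 lower. At 10 nM, then, MYC was below vehicle while 38 members were above it with TMM scaling (16 with library totals). The part of MYC in the members' values was not tested.

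Shared sequence and overlapping genes limit what the counts of some members can say. In GENCODE 29, 26 members overlap a gene on the opposite strand and 7 a gene on the same strand, and the strand setting of the counting is not given in the sources used here. Named pseudogenes exist for 13 members, of which NPM1 has the most: 45 in the annotation, 31 of them in the count table with 5674 counts in all, against 514742 for NPM1. RRN3 had 2051 counts in its pseudogenes against 48788 in the gene. In all, 7 members hold snoRNA genes inside them: NOP56, NOP58, WDR43, TSR1, GNL3, NCL and POLR1C. Values of NPM1 and RRN3 are therefore less certain than those of members without such copies.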

How the data were processed

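The values used are whole-number counts per gene in 15 LNCaP libraries (5 doses, 3 libraries each), as the authors deposited them in 1 table. Per the submitters' processing notes, Trimmomatic 0.39, STAR 2.7.8a, DESeq2 1.36.0 and the GRCh38 genome (hg38) were used, and per the labels' protocols libraries were made with a stranded mRNA kit; the counting tool, its strand setting and the annotation release are not given in the sources used here. A further 15 columns, of VCaP cells, matched no sample's label beyond doubt and were not analysed here. Total counts per library ran from 30666460 to 61199483, and intervals and tests cover the spread between libraries only.

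Gene names came from the identifiers with the version removed (37731 of 37843 genes had a symbol). Positions and exon lengths came from GENCODE 29 (GRCh38), whose identifier versions matched for 48.5% of the genes, so the authors' release may be another. Genes were filtered with edgeR's filterByExpr by group (18403 kept), scaled with TMM, and fitted with 5 group means over all 15 libraries by edgeR 4.0.16 (glmQLFit, glmQLFTest, R 4.3.3, limma 3.58.1), two-sided, with Benjamini-Hochberg adjustment over all genes tested and a threshold of 0.05. The code was tested on simulated data with known changes. Promoters were RefSeq's (GRCh38.p14). Tables and figures were made with Python 3.11.15, pandas 2.3.3, numpy 2.4.6 and matplotlib 3.10.9.

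The members and gene lists were chosen with earlier results of these data known. All 52 members could be named. Values in every library were given for the 6 largest called rises and falls with no overlap between groups (0.06 nM and 10 nM against vehicle, 10 nM against 0.06 nM), for the member of each role with the smallest p of any difference or the highest CPM, and for landmark members. PAK1IP1, outside that rule, had its library values added after they were seen. Of 141 further ribosome biogenesis genes the 3 largest rises and falls in 2 comparisons were named. Markers of prostate epithelium, basal epithelium, leukocytes, fibroblasts and endothelium were listed too; COL1A2 and KRT5 were not used here.

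Alternatives changed the scaling (RLE size factors, library totals), the tool (DESeq2 1.42.0), the filter (none, or a mean count of 20 with 1 CPM in 3 libraries), the samples (those of the comparison alone, each library left out, the 5 libraries numbered 3 left out) or the model (a replicate block). For pairing, deviations from group means of same-numbered libraries were correlated. Every pair was over 0.1 for 0.03 nM against vehicle (0.155 to 0.296) and 0.1 nM against vehicle (0.151 to 0.287). The replicate block was therefore taken as a fair alternative there, though no label ties the numbers to a shared culture or day. The main fit had no replicate term, so its log2 changes, adjusted p-values and calls are unpaired in every comparison. In the other 5 comparisons the pair numbered 4 was at 0.0348 to 0.099.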

Additional observations from a re-analysis of the deposited data

How the results depend on the processing

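Counts of members called higher at 0.06 and 0.1 nM stayed within 1.5 times their main value under every alternative run, from 38 to 46 and from 41 to 45, with 0 lower in each, and so did the count of members with any difference (47 to 51). Leaving out single libraries gave 38 to 43 at 0.06 nM, 42 to 44 at 0.1 nM, 49 to 51 for any difference, 31 to 38 higher and 4 to 5 lower at 10 nM against vehicle, 2 to 7 higher and 16 to 20 lower at 10 against 0.06 nM, and 1 to 4 higher and 22 to 26 lower at 10 against 0.1 nM. At 0.03 nM it gave 6 to 22 higher, and fitting only the libraries compared gave 6. The replicate block gave 24 members higher at 0.03 nM, 46 at 0.06 nM, 45 at 0.1 nM, 38 higher and 5 lower at 10 nM, 0 at 0.1 against 0.06 nM, 9 higher and 22 lower at 10 against 0.06 nM, and 5 higher and 27 lower at 10 against 0.1 nM; among the log2 changes of single members at 0.06 nM, 10 nM and 10 against 0.06 nM it ended 0 calls and added 11. All 15 libraries had their highest mean correlation with the libraries of other groups that bore their own number, a hint from the data and not from the design. No filter on low counts left 3 members lower at 10 nM against vehicle, where more genes were tested. Without the 5 libraries numbered 3, 1 member was higher at 10 against 0.1 nM. Library totals gave 16 higher and 12 lower at 10 nM against vehicle, 0 higher and 37 lower against 0.06 nM, and 0 higher and 37 lower against 0.1 nM.

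Among members' log2 changes at 0.06 nM, 10 nM and 10 against 0.06 nM, 14 that were positive with TMM and called under at least 1 of the scalings turned negative with library totals; changes called under neither also turned negative and are not listed. At 10 nM against vehicle these were NOC2L -0.042, HEATR1 -0.025, POLR1A -0.083, WDR75 -0.194, NPM1 -0.082, POLR1C -0.024, NAT10 -0.129, UTP20 -0.185, RRN3 -0.209, RRP1B -0.178 and RRP1 -0.069. At 10 against 0.06 nM they were GNL3 -0.029, DDX10 -0.166 and UTP18 -0.143. By construction library totals leave out the TMM factor, which was lowest at 10 nM. Among members NOP2 had the fewest counts (656 in all); the size of change this depth could show was not tested.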
